A study of Caenorhabditis elegans with 8 samples.

Results

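The nuclear hormone receptor genes of Caenorhabditis elegans were examined in RNA of whole worms after a 24-hour exposure to DEET, a common insect repellent, or to the solvent DMSO. The members were all genes with an nhr symbol followed by a number in the Ensembl annotation of genome build WBcel235. There were 269 of them among the 46244 gene identifiers of the deposited tables, all annotated as protein-coding. A further 14 identifiers are called nhr genes by the RefSeq gene table only, as pseudogenes, and were not counted as members. There were 4 DMSO and 4 DEET samples of 1000 pooled worms each, picked at the late L4 larval stage. All 8 were of the strain that the labels name by the collagen gene col-121, with no allele given, and the labels give 0.1% DMSO for the solvent and 0.1 M for DEET dissolved in DMSO, without saying whether that is the stock or the final concentration. Each sample carries a batch number from 1 to 4 that joins 1 DEET and 1 DMSO sample.

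Nuclear hormone receptors are transcription factors that bind DNA through a zinc finger domain and carry a second domain able to bind small lipophilic molecules, through which hormones, fatty acids or foreign compounds can change transcription. Nematodes carry far more of these genes than insects or mammals do. Most worm receptors descend from a relative of vertebrate HNF4, a liver receptor, and only a small set has direct counterparts across animals. In the worm intestine and epidermis, members of the family control fat metabolism, vitamin B12 dependent metabolism, detoxification and moulting. For most members no ligand is known.

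The 8 libraries held 44437681 to 50295321 counts, of which nhr genes took 0.141% to 0.175%. Both batch 4 libraries stood apart. Ribosomal RNA took 10.87% and 12.07% of their counts, against 3.91% to 8.32% in the other 6. Markers of intestine, epidermis, neurons, muscle, pharynx, oocytes and sperm were all present, and none of them was at 0 in all libraries. The summed level of 8 early embryonic transcription factor and embryonic genes was only 0.931 to 1.98 TPM (a level per transcript length, scaled to a fixed total per library). Because the RNA came from whole worms, fewer cells of a type and less RNA per cell cannot be told apart in any value below.

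More receptor genes than not were measurable in control worms, and the 10 most abundant supplied 25% to 37.4% of the nhr total of a DMSO library. In the DMSO samples 153 of 269 members (56.9%) had at least 1 TPM in 4 of 4 libraries, against 60.6% of all protein-coding genes. Another 15 reached 1 TPM in some DMSO libraries, and 101 in none. Of these 101, 18 had 0 counts in all DMSO libraries, and 13 of the 18 had 0 counts in all 8. A count of 0 in a library allows up to 3 counts there. By mean level, 32 members stood at 10 TPM or more, 130 between 1 and 10 TPM and 107 under 1 TPM. The 13 members without a count in any library were nhr-77, nhr-82, nhr-89, nhr-192, nhr-196, nhr-197, nhr-233, nhr-247, nhr-248, nhr-268, nhr-272, nhr-276 and nhr-288.

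The highest level was that of nhr-49 (chromosome I, 9869651 to 9874680), which controls fatty acid oxidation and desaturation and the response to fasting. It stood at 77.4, 76.2, 79.7 and 69.0 TPM in DMSO batches 1 to 4 and at 79.9, 77.0, 77.0 and 65.3 TPM with DEET. Its range in DMSO lay above that of every other member. The next was nhr-66 (chromosome IV, 8226331 to 8236602), a partner of NHR-49 in lipid metabolism, at 56.7 ± 12.7 TPM in DMSO (SD, n = 4). It was followed by nhr-68, which activates the propionate shunt when vitamin B12 is low, at 48.2 ± 4.62 TPM, and by nhr-97 at 42.3 ± 4.75 TPM. Then came nhr-114, which links B12 to the methionine cycle, at 39.0 ± 17.3 TPM, nhr-23, the moulting regulator related to vertebrate ROR receptors, at 38.6 ± 8.46 TPM, and nhr-86, a sensor of a bacterial pathogen metabolite, at 38.05 ± 5.81 TPM (SD, n = 4 each). Rank 8 to 10 were nhr-274, nhr-46 and nhr-31, at 28.3, 23.2 and 22.7 TPM. From nhr-66 down to nhr-10 at rank 11, the DMSO range of each gene overlapped that of the next, so their order by mean is not set by ranges that stand apart. Within libraries, nhr-68 was above nhr-97, nhr-86 above nhr-274 and nhr-274 above nhr-46 in 4 of 4, while nhr-114 was above nhr-23, and nhr-31 above nhr-10, in 1 of 4. The range of nhr-10, which acts with nhr-68 in the propionate shunt, at 21.7 ± 1.87 TPM, lay above that of nhr-8 at rank 12.

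**Figure D1:**
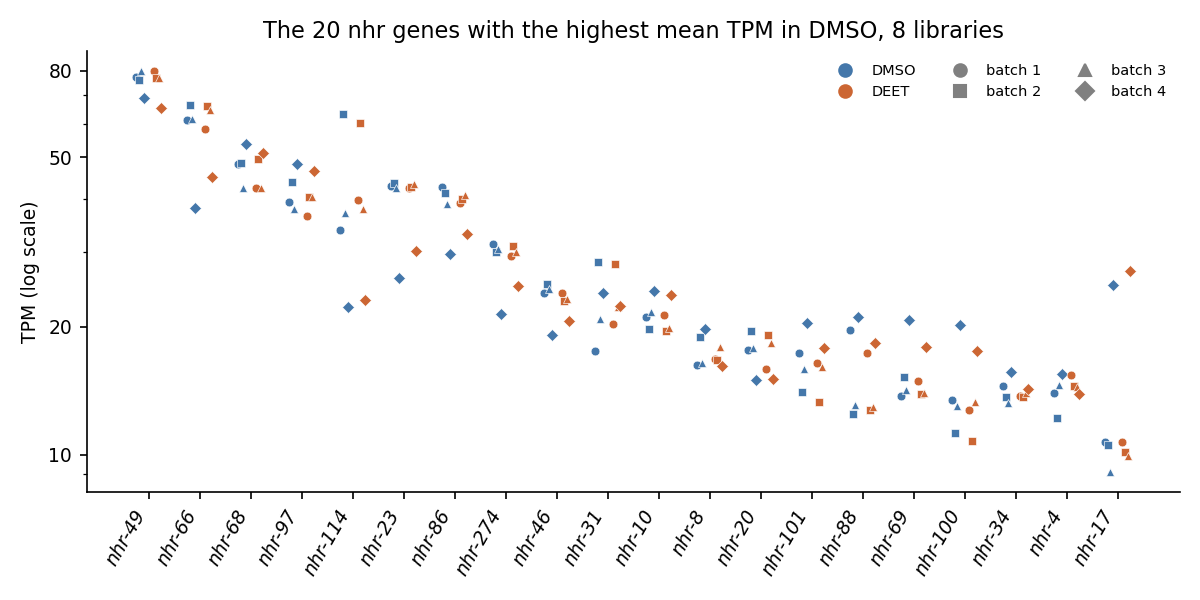
Level in TPM (log axis) of the 20 nhr genes with the highest mean in DMSO; each point is 1 library, coloured by treatment and shaped by batch. DEET and DMSO points of a batch lie close together, while batch 4 points of nhr-66, nhr-114 and nhr-23 lie lowest and those of nhr-17 highest, at 25.1 and 26.99 TPM.

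The members chosen for a known role ranged widely in level. Among the receptors of fat and energy metabolism, nhr-80, which with NHR-49 controls fatty acid desaturases, stood at 7.25 ± 1.07 TPM in DMSO. Its partner nhr-13 stood at 8.79 ± 0.90 TPM, and nhr-62, needed for the long life of food-restricted worms, at 5.37 ± 0.94 TPM (SD, n = 4 each). nhr-64 and nhr-76, both tied to fat storage, stood at 7.76 ± 1.46 and 7.004 ± 0.83 TPM. All of these stood well below nhr-49 and nhr-66. Among the receptors that respond to foreign compounds, stress or iron, nhr-8, which protects against toxins and acts in cholesterol balance, stood at 17.8 ± 1.77 TPM. nhr-176, which is needed for the breakdown of the drug thiabendazole, stood at 7.87 ± 0.74 TPM, and the iron regulator nhr-14 at 10.98 ± 1.26 TPM (SD, n = 4 each). Of the other members of that list, nhr-45 stood at 8.91 ± 2.27 TPM and nhr-57, a target of the hypoxia factor HIF-1, at 6.82 ± 3.66 TPM. Among the members with direct counterparts across animals, nhr-48, related to the vertebrate vitamin D receptor, stood at 11.3 ± 1.08 TPM and nhr-91, related to germ cell nuclear factor, at 2.21 ± 0.58 TPM. In the same list of 11, nhr-111 and nhr-239 did not pass the filter on low counts, with DMSO means of 0.015 and 0.11 TPM. The moulting and developmental receptors nhr-25, the worm counterpart of the vertebrate receptor SF-1, and nhr-67, the counterpart of tailless, were also low in these worms, at 0.97 ± 0.29 and 0.27 ± 0.06 TPM (SD, n = 4), and nhr-85, related to Rev-erb, stood at 1.91 ± 0.42 TPM. Of the 5 moulting and timing receptors listed, nhr-23 alone was above 10 TPM. In the list of reproductive tract, embryo and excretory cell receptors, nhr-31 and nhr-40 stood at 22.7 ± 4.64 and 10.9 ± 1.39 TPM, and nhr-2 at 8.61 ± 1.60 TPM. The other two, nhr-6 and nhr-60, stood at 1.02 ± 0.12 and 0.79 ± 0.06 TPM (SD, n = 4 each).

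Most of the family lies on chromosome V, which held 167 of 269 members (62.1%) and 25% of protein-coding genes. On that chromosome 56.9% of the members were detected in DMSO by the rule above, against 44% of all its protein-coding genes. On chromosome IV the shares were 72.7% of 33 members and 64% of protein-coding genes, and on X 65.2% of 23 members and 60.2%. The order was the other way on the remaining chromosomes, with 30.4% of 23 members and 72.3% of protein-coding genes on I, 53.3% of 15 and 59.8% on II, and 50% of 8 and 76.4% on III. Members on chromosome X had the highest median, 6.83 TPM in DMSO, and those on chromosome I the lowest, 0.219 TPM. The shares describe these libraries and were not tested.

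**Figure D2:**
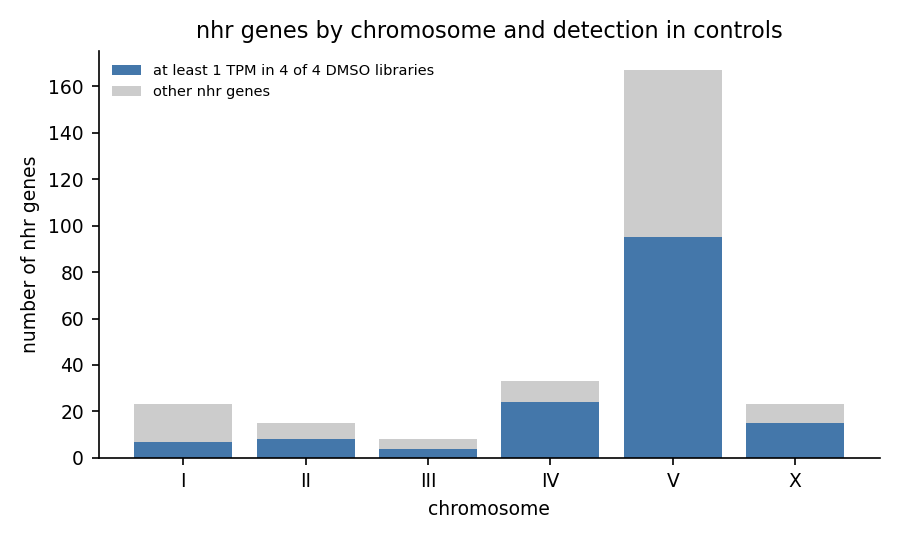
Number of nhr genes on each chromosome, split into those with at least 1 TPM in 4 of 4 DMSO libraries (blue) and the others (grey). Chromosome V holds 167 members, 95 of them detected, and chromosome I holds 23, of which 7 were detected.

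Many members are neighbours. With at most 10 kb between a gene and the next, 159 of 269 fell into 44 runs of 2 or more, 30 of these runs on chromosome V. The longest run held 12 genes (chromosome V, 451451 to 497297), from nhr-123 to nhr-131. All 12 were detected in DMSO, at 1.18 to 7.94 TPM. A run of 9 genes that begins with nhr-133 (chromosome V, 2210510 to 2235180) was likewise detected in full, at 2.16 to 6.30 TPM. In contrast, none of the 9 genes in the run that begins with nhr-185 (chromosome V, 3844429 to 3886204) was detected by this rule, and their means were 0.0092 to 0.382 TPM. In the run of 8 that begins with nhr-51 (chromosome V, 15674007 to 15702363) 1 was detected, at 4.67 TPM, and the lowest mean was 0. Such neighbours can be close copies, and the counting may have shared reads among them. The annotation also places 49 members over another protein-coding gene, 36 of them over a gene on the opposite strand, and no source says if reads were assigned by strand. Among the abundant or role-listed members, nhr-66 overlaps serp-1.2, nhr-86 overlaps comt-3, nhr-8 overlaps F33D4.6 and nhr-114 overlaps Y45G5AM.9, each on the opposite strand. So do the role-listed nhr-6, nhr-60, nhr-64, nhr-85, nhr-91 and nhr-239 with other genes. nhr-57 overlaps lgc-1 and nhr-40 overlaps T03G6.7 on the same strand.

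The first comparison asks how DEET changes receptor transcripts. No nhr gene was called higher or lower with DEET. The edgeR quasi-likelihood test with the batch number as block was run over 15496 genes. It called 0 of the 185 members that passed the filter in either direction at an adjusted p under 0.05, against 0.0839% of all genes tested called higher and 0% lower. DESeq2 with the block also called 0 members, as did every other fit tried. At an unadjusted p under 0.05 there were 10 members, or 5.41% against 3.39% of all genes tested. Of the 10, 4 were higher (2.16%, against 1.09% of all genes) and 6 lower (3.24%, against 2.3%). Without the block there were 0 members at this unadjusted p. The share over all genes was not counted for that fit, so the 0 cannot be read as particular to the members. The filter on low counts passed 68.8% of the 269 members and 73.8% of protein-coding genes. The other 84 members were not tested, and their DMSO means were at most 0.447 TPM.

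The member with the smallest p was nhr-205 (chromosome V, 10080083 to 10081776). It stood at 1.75, 1.75, 1.96 and 2.80 TPM in DMSO batches 1 to 4 and at 2.51, 2.53, 2.49 and 5.72 TPM in the DEET samples of the same batches. Each DEET sample was above the DMSO sample of its batch, but the groups overlapped, since the DMSO sample of batch 4 was above 3 DEET samples. The log2 fold change of nhr-205, DEET over DMSO, came to 0.65 ± 0.15 (SE; edgeR adjusted p = 0.501). Across all fits its log2 fold change ran from 0.44 to 0.74, and the smallest adjusted p was 0.0846, by edgeR without a filter.

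The other members closest to a call upwards were nhr-235, nhr-71, nhr-238 and nhr-76. nhr-235 was scarce, with 13, 13, 8 and 6 counts in DMSO batches 1 to 4 and 21, 20, 12 and 11 counts with DEET. Its mean log2 ratio over the 4 batches was 0.59 ± 0.12 (SD). nhr-71 stood at 12.6, 13.003, 12.2 and 8.29 TPM in DMSO and 13.4, 13.7, 13.1 and 9.26 TPM with DEET, with log2 ratios of 0.07 to 0.17. The ratio was small and of 1 sign, and batch 4 was lowest under both treatments. nhr-238 stood at 3.19, 2.22, 2.42 and 4.05 TPM in DMSO and 3.31, 3.21, 2.98 and 4.77 TPM with DEET, so its groups overlapped. nhr-76, which acts in the fat loss driven by serotonin, had a mean ratio of 0.13 ± 0.12 (SD, 4 batches). All 4 had edgeR adjusted p values of 0.9999.

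On the lower side, the members with the smallest p were nhr-19, nhr-105, nhr-121, nhr-163 and nhr-47, with the same adjusted p. The steadiest of them was nhr-47 (chromosome V, 5505253 to 5509956), at 6.97, 6.63, 6.78 and 6.41 TPM in DMSO batches 1 to 4 and 6.19, 5.96, 6.27 and 5.86 TPM with DEET. Every DEET value of nhr-47 lay below every DMSO value, and its log2 ratio was -0.14 ± 0.02 (SD of 4 batches). It overlaps hpo-15 on the opposite strand. For nhr-105 the levels were 18.6, 10.3, 10.98 and 14.6 TPM in DMSO and 12.7, 9.56, 10.1 and 13.8 TPM with DEET, and its ratio was -0.53 in batch 1 and -0.14 to -0.07 in the others. Most of the mean of nhr-105 thus came from batch 1. nhr-19 stood at 10.1, 5.34, 5.66 and 9.18 TPM in DMSO and 8.26, 5.14, 5.31 and 7.56 TPM with DEET, and it overlaps mrpl-53 on the opposite strand. nhr-121 stood at 7.09, 5.96, 5.71 and 8.16 TPM in DMSO and 6.51, 5.46, 5.01 and 6.88 TPM with DEET. Both genes were lower with DEET in every batch, by less than batches differed. nhr-163, a member of a 7-gene run on chromosome V, had a mean ratio of -0.35 ± 0.22 (SD of 4 batches) on 35 to 70 counts per library.

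**Figure D3:**
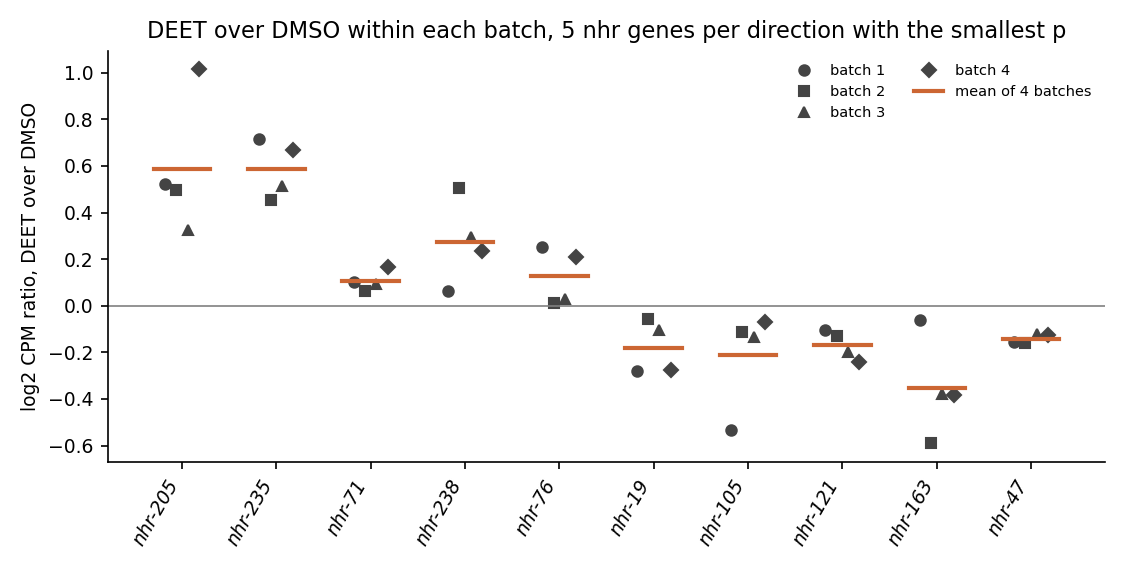
Log2 ratio of CPM, DEET over DMSO, within each of the 4 batches (points) and their mean (bar) for the 10 nhr genes with the smallest p, 5 per direction. Ratios of nhr-47 lie within -0.16 and -0.12, while nhr-205 runs from 0.33 to 1.01; none of the 10 passed the adjusted threshold.

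As a whole the tested members sat slightly below 0. Their median log2 fold change was -0.033, with the middle 50% between -0.10 and 0.04, against 0.0049 over all 15496 genes. Of the 185, 118 (63.8%) were below 0, against 47.1% of all genes tested. By level, with a mean over all 8 libraries of 1 to 10 TPM the share was 66.4% of 131 members and 54.1% of all genes, at 10 TPM or more 62.5% of 32 members and 41.5%, and under 1 TPM 50% of 22 members and 50.1%. The members' median log2 ratio was -0.05, -0.02, 0.04 and -0.07 in batches 1 to 4, so batch 3 went the other way, and in batch 2 the median of all genes was also -0.02. There were 10 members higher in 4 of 4 batches (5.41%, against 4.58% of all genes), namely nhr-25, nhr-71, nhr-76, nhr-108, nhr-177, nhr-181, nhr-205, nhr-212, nhr-235 and nhr-238. Those lower in 4 of 4 were 14 (7.57%, against 5.72%): nhr-15, nhr-19, nhr-41, nhr-45, nhr-47, nhr-55, nhr-57, nhr-105, nhr-121, nhr-122, nhr-129, nhr-163, nhr-179 and nhr-182.

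By role, the DEET differences were small in every group. The 7 fat and energy receptors ran from -0.16 (nhr-64) to 0.13 (nhr-76) on the log2 scale. The 3 receptors of B12-linked metabolism ran from -0.056 to 0.063. The 6 receptors tied to foreign compounds, pathogens, hypoxia or iron ran from -0.18 (nhr-57) to 0.016 (nhr-86). Within this last group the detoxification receptors nhr-8 and nhr-176 had log2 fold changes of -0.075 ± 0.069 and -0.045 ± 0.088 (SE), each lower with DEET in 2 of 4 batches. The 5 moulting receptors ran from -0.14 (nhr-41) to 0.18 (nhr-85) and the 5 of reproductive tract, embryo and excretory cell from -0.10 to 0.09.

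Other genes of the receptor pathways gave 0 calls in the fit with all batches. Of 3 tested receptors with other names, daf-12, the receptor for the steroid dafachronic acid, stood at 8.07 ± 0.30 TPM in DMSO and 8.06 ± 0.35 TPM with DEET (SD, n = 4). The other two, sex-1, a counter of X chromosomes in sex determination, and unc-55, a neuronal receptor, were at log2 fold changes of -0.085 ± 0.06 and -0.19 ± 0.26 (SE). A list of 5 genes held coregulators and the chaperone gene hsp-90. It included mdt-15, a mediator subunit and partner of NHR-49, and cbp-1, a histone acetyltransferase. These 5 ran from -0.0016 (mdt-15) to 0.04 (hsp-90). The 4 tested genes of dafachronic acid metabolism ran from -0.12 to 0.013, the 5 genes of the propionate shunt from -0.089 to -0.018, and the 6 genes of the methionine cycle from -0.02 to 0.025.

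Genes reported as targets of NHR-49 and NHR-80 were all below 0, 8 of 8 (7 of 8 under RLE scaling), with a median of -0.089, against 0.0049 over all genes, and no call. The acyl-CoA synthetase gene acs-2, a marker of NHR-49 activity, stood at 97.6, 19.5, 88.1 and 124 TPM in DMSO batches 1 to 4 and 72.2, 15.4, 77.6 and 115 TPM with DEET. It was lower with DEET in 4 of 4 batches and lowest in batch 2 under both treatments. The log2 fold change of acs-2 came to -0.26 ± 0.05 (SE; edgeR adjusted p = 0.294). icl-1, the glyoxylate cycle gene, was lower in 4 of 4 batches too, at -0.16 ± 0.05 (SE), and fat-7, a fatty acid desaturase, in 3 of 4. The 6 targets of NHR-176, NHR-86 and NHR-14 were also all below 0. Among them cyp-35D1, the P450 enzyme under NHR-176, was scarce, at 0.38 ± 0.11 TPM in DMSO and 0.29 ± 0.22 TPM with DEET (SD, n = 4). The ferritin gene ftn-1 stood at 70.4, 40.03, 77.6 and 172 TPM in DMSO and 63.4, 40.1, 72.3 and 152 TPM with DEET, highest in batch 4 under both. Of 5 moulting genes tied to NHR-23, 4 were below 0 (3 under RLE scaling, 5 with scaling by library total), with a median of -0.09.

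Tissue markers had DEET differences of like size, again with no call. All 7 body wall muscle markers were below 0, with a median log2 fold change of -0.069, and so were 5 of 6 epidermis markers (3 of 6 under RLE scaling), with a median of -0.062. All 10 germline and oocyte markers were above 0 (all but 1 with scaling by library total), with a median of 0.057. Of 9 intestine markers 5 were below 0, with a median of -0.012. The part of these shifts in the differences of the receptors and their targets was not tested.

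**Figure D4:**
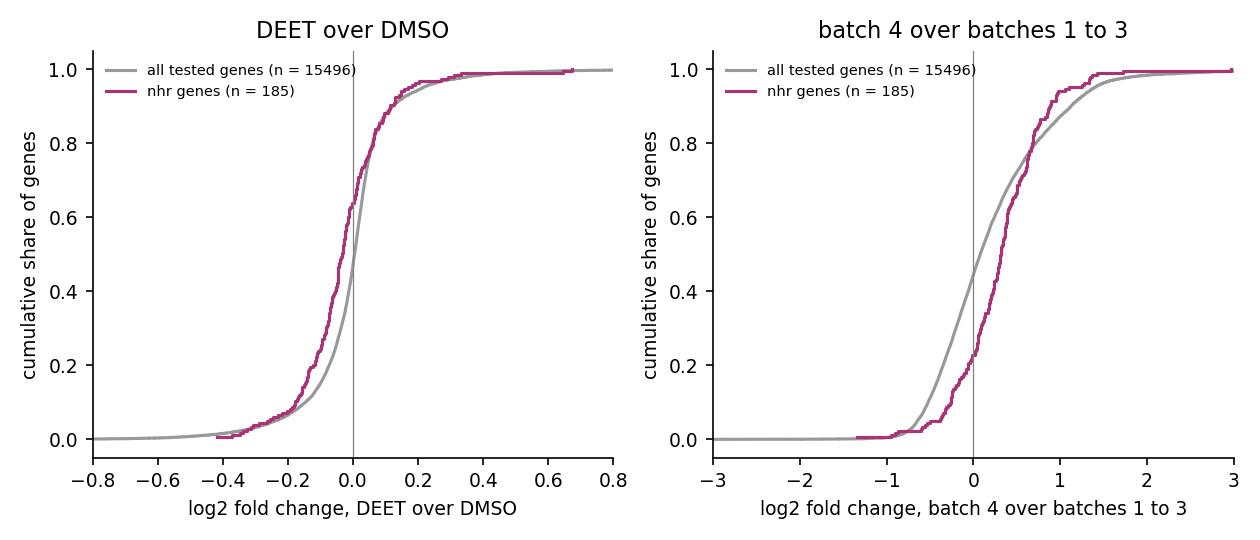
Cumulative share of genes by log2 fold change, for DEET over DMSO (left, axis from -0.8 to 0.8) and for batch 4 over batches 1 to 3 (right, axis from -3 to 3), for 185 nhr genes and all 15496 tested genes. The nhr curve lies slightly left of that of all genes for DEET (medians -0.033 and 0.0049) and right of it over most of its length for batch 4 (medians 0.32 and 0.078).

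More members differed between batches than between treatments. A test of the 3 batch terms together, with treatment in the model, called 108 of 185 tested members (58.4%), against 64.9% of all genes tested. Among the 108, batch 4 was highest for 87 and lowest for 15, and batch 2 was highest for 14 and lowest for 57. The same split was not made over all called genes, so it cannot be read as particular to the members. DESeq2 called 67 of 185 members in its test of the batch terms, against 8195 of 15496 genes. A batch holds only 1 DEET and 1 DMSO library, which served as its replicates.

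Receptor genes were mostly higher in batch 4. Against the mean of batches 1 to 3, 96 members (51.9%) were higher and 16 (8.65%) lower at an edgeR adjusted p under 0.05, against 36.4% and 29.8% of all genes. For 94 members both batch 4 libraries lay above the other 6, and for 14 both lay below them, or 50.8% and 7.57%, against 34.4% and 29.6% of all genes. The members' median log2 difference was 0.33 among DMSO libraries and 0.30 among DEET libraries, so it was present under both treatments. With scaling by library total, 111 members were higher and 9 lower. The calls among members thus went from 85.7% to 92.5% higher, and those among all genes from 55% to 66.1% higher. Set against genes of like level, the gap differed. Among genes with a mean of 1 to 10 TPM, where most members sit, 57.3% of 131 members and 52.5% of all genes were higher, and 3.82% and 10.5% were lower. The members' median difference in that class was 0.37, against 0.39 for all genes. Under 1 TPM the share was lower than the background, with 27.3% of 22 members and 36.8% of all genes higher, at medians of 0.078 and 0.40. Among those at 10 TPM or more, 15 of 32 members were higher and 10 lower (46.9% and 31.2%), against 25.2% and 49.7% of all genes.

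The largest rise by the naming rule was that of nhr-99 (chromosome V, 474778 to 477155), a gene of the 12-gene run. It stood at 2.30, 1.53, 1.33 and 5.71 TPM in DMSO batches 1 to 4 and at 1.80, 1.78, 1.72 and 5.59 TPM with DEET. Both batch 4 samples were well above all others, at a log2 difference of 1.72 ± 0.13 (SE; edgeR adjusted p = 1.8e-06). nhr-17 (chromosome X, 12663837 to 12667854) stood between 9.09 and 10.7 TPM in the 6 samples of batches 1 to 3, against 25.1 TPM in DMSO batch 4 and 26.99 TPM in DEET batch 4. Its log2 difference was 1.37 ± 0.06 (SE; edgeR adjusted p = 3.1e-08), and it overlaps the neuropeptide gene nlp-76 on its own strand. nhr-57 stood at 2.93 to 5.93 TPM in batches 1 to 3 and at 12.2 and 10.985 TPM in batch 4, a log2 difference of 1.33 ± 0.09 (SE). nhr-18, nhr-112, nhr-135 and nhr-237 had log2 differences of 1.34, 1.35, 1.27 and 1.43, with both batch 4 samples above all others in each.

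The members lower in batch 4 included several of the most abundant. nhr-114 (chromosome V, 4187202 to 4190008) stood at 33.7, 63.2, 37.1 and 22.2 TPM in DMSO batches 1 to 4 and at 39.6, 60.4, 37.8 and 23.1 TPM with DEET. It was lowest in batch 4 and highest in batch 2 under both treatments, with a log2 difference of batch 4 from the others of -0.95 ± 0.06 (SE; edgeR adjusted p = 8.7e-07). nhr-23 stood at 42.2 to 43.6 TPM in the 6 samples of batches 1 to 3 and at 25.98 and 30.04 TPM in batch 4, a log2 difference of -0.60 ± 0.05 (SE). For nhr-66 the values were 58.3 to 66.2 TPM against 37.96 and 45.1 TPM, a log2 difference of -0.59 ± 0.06 (SE). nhr-71, nhr-2, a receptor of the early embryo, and nhr-78 had log2 differences of -0.56, -0.53 and -0.51. The 10 most abundant members made up 25% and 26.8% of all nhr TPM in batch 4, against 32.4% to 37.6% in the other 6 libraries. The summed level of the family was higher there, at 1403 and 1351 TPM against 1201 to 1290 TPM. How far these falls and the higher sum each lowered the share was not worked out.

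**Figure D5:**
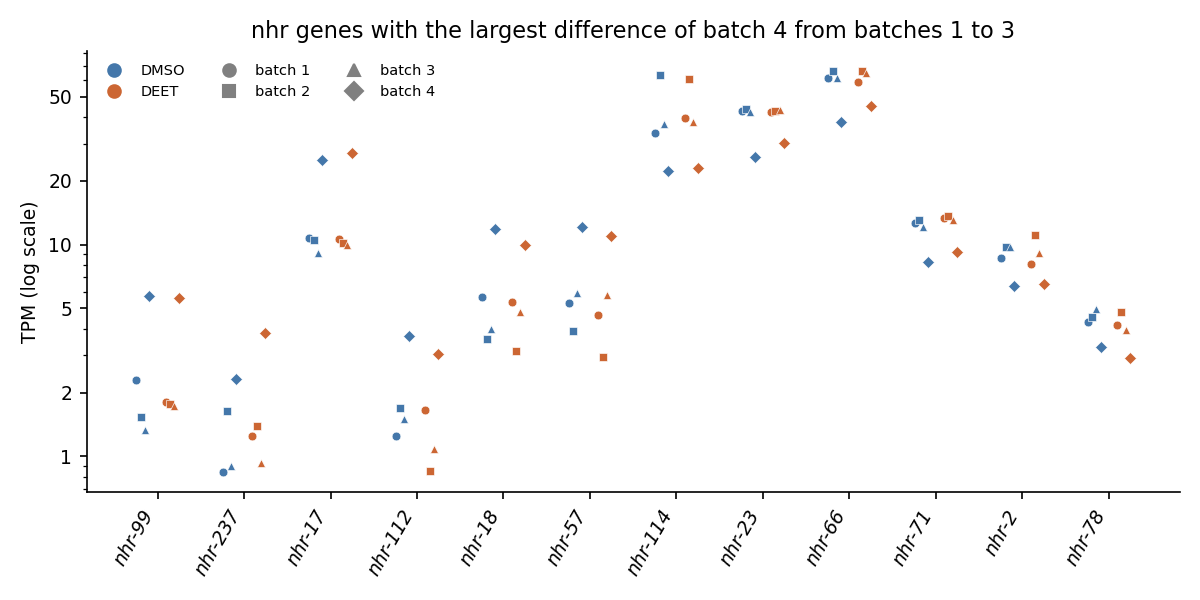
Level in TPM (log axis) in each of the 8 libraries for the 6 nhr genes with the largest rise and the 6 with the largest fall in batch 4 against batches 1 to 3, among those past the threshold with a mean of at least 50 counts. Batch 4 points (diamonds) lie apart from the other 3 batches under both treatments, as for nhr-17 at 25.1 and 26.99 TPM against 9.09 to 10.7 TPM.

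By role, the falls and rises in batch 4 were mixed. The shares to read the counts against are those of all genes, 36.4% higher and 29.8% lower, or 25.2% and 49.7% at 10 TPM or more. Among the 7 fat and energy receptors 4 were higher and 3 lower, the lower ones being nhr-49, nhr-66 and nhr-13; with scaling by library total nhr-66 alone was called lower. Of the 6 receptors of the foreign compound, pathogen, hypoxia and iron group, nhr-57, nhr-45 and nhr-14 were higher and nhr-86 lower, while nhr-8 and nhr-176 did not pass. The methionine cycle genes linked to NHR-114 were lower in 6 of 6, and the coregulators with hsp-90 in 5 of 5. With scaling by library total these were 5 and 4. The NHR-49 and NHR-80 targets were higher in 6 of 8. Of these, acs-2 and icl-1 were low in batch 2 (means 17.4 and 98.1 TPM, batch 4 120 and 377 TPM), which lowers the mean of batches 1 to 3. cpt-5 stood nearly as high in batch 2 as in batch 4 (12.4 and 13.7 TPM). fat-6 had means of 339 to 416 TPM in batches 1 to 3 and 659 TPM in batch 4. Markers of several other tissues moved with batch 4 too. All 10 germline and oocyte markers were lower there, with a summed level of 2312 and 2742 TPM against 4194 to 4413 TPM in the other 6 libraries. Sperm markers summed to 417.4 and 420.7 TPM against 145 to 298 TPM, body wall muscle markers to 1644 and 1833 TPM against 1087 to 1546 TPM, and neuron markers to 140 and 149 TPM against 103 to 116 TPM. Of these lists, 9 of 10 sperm, 7 of 7 muscle and 7 of 9 neuron markers were called higher in batch 4. Intestine markers summed to 10790 and 12590 TPM in batch 4 and 11820 to 15220 TPM in the others, so these ranges overlapped, while 5 of 9 were called higher and 3 lower. Epidermis markers summed to 779 and 799.4 TPM against 618 to 821 TPM, and 5 of 6 were called higher and 1 lower, with a median log2 difference of 0.63. Of 6 pharynx markers 1 was called higher and 2 lower, and of 3 coelomocyte markers 0 were called higher and 2 lower. The part of these shifts, and of the higher ribosomal RNA share, in the receptor differences was not tested.

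Batches 1 to 3 differed among themselves in fewer members. Without batch 4, the batch test called 21 of 185 (11.4%), against 18.8% of all genes. Of these 21, 15 were highest in batch 1 and 13 lowest in batch 2, a split that was not made over all genes. The members with the smallest p, chosen here after their values were seen, were nhr-114, nhr-88, nhr-31 and nhr-19. nhr-31, which shapes the excretory cell, had batch means of 18.9, 28.2 and 21.6 TPM in batches 1 to 3, and nhr-88 had 18.5, 12.6 and 13.02 TPM. nhr-19 had 9.20, 5.24 and 5.48 TPM. nhr-114 and nhr-31 were thus highest in batch 2, and nhr-88 and nhr-19 in batch 1. The summed level of the intestine markers also peaked in batch 2 (DMSO library 15220 TPM, DEET library 14100 TPM). Most of that sum came from vit-2 and vit-6, with batch 2 means of 5889 and 5935 TPM. Among batches 1 to 3, these genes and act-5, asp-1, elt-2 and pho-1 were highest in batch 2. The other markers were not, with ges-1 highest in batch 3 (30.7 TPM, batch 2 28.4 TPM). elt-7 and ifb-2 were highest in batch 1. The part of the intestine markers in these differences was not tested.

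A single member was missing from a whole batch while it had at least 10 counts in each library of the other batches. nhr-73 (chromosome I, 11433671 to 11436018) had 0 counts in both batch 3 libraries and 15 to 33 counts in each of the other 6, so it was at least 6.74-fold higher in those by mean CPM (counts scaled to library size), taking 3 counts per library as the limit for a count of 0. It was noticed after its values were seen. A search of all 46244 identifiers for 0 counts in both libraries of any batch and at least 10 in each of the other 6 returned nhr-73 and no other gene. Its neighbour nhr-74 had counts in all 8 libraries.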

How the data were processed

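RNA of 8 whole-worm samples was sequenced from polyadenylated RNA with the Kapa mRNA HyperPrep kit, per the labels' protocols. The authors deposited whole-number counts per gene, not normalized, and TPM values scaled to a fixed total per library. Per the submitters' processing notes, Salmon, DESeq2 and build WBcel235 were used; no versions, settings or strand use are stated in these sources. Of 46244 identifiers, 46182 were matched by sequence name to 1 gene of the Ensembl annotation, 3 to several and 59 to none.

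Counts were tested in R 4.3.3 with edgeR 4.0.16 (quasi-likelihood, TMM scaling, default filter by group, robust, Benjamini-Hochberg over 15496 genes, two-sided, threshold 0.05), with batch as block and treatment as the other term. The block follows the labels, which mark the number as a shared batch. Deviations from the group mean correlated within batches 1 to 4 at 0.429, 0.706, 0.558 and 0.896, and the highest correlation with a library of another number was 0.534, between batches 2 and 3. The SE of a log2 fold change is its size over the square root of F, so it restates the p. Batch ratios are log2 CPM with a prior count of 2. DESeq2 1.42.0, limma 3.58.1 on log2(TPM + 1), other scalings, no filter and left-out batches were alternatives. The test was checked on simulated counts with genes changed 2- or 4-fold. It recovered most changed genes but made more false calls than the threshold allows. Smaller changes, such as those given for members with DEET, and changes of scarce genes were not simulated. Libraries of 1 group differed by a chi-square per gene of 14.2 or more, so none was a repeat of another. Counts lack molecular identifiers, so limits cover counting error only.

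The members, lists and tests were chosen with earlier results of these data known. Named genes were the 5 per direction with the smallest p for DEET, the 10 highest in DMSO, the 6 per direction with the largest batch 4 difference and the 5 with the smallest batch p (both with a mean of at least 50 counts), those with a listed role, and pathway examples. The role and pathway lists rest on general knowledge of the genes. No sequences were used here.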

Additional observations from a re-analysis of the deposited data

Results flagged for a closer look

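Among 49 named genes, each checked in the DMSO and the DEET group (98 groups of 4), 14 groups had a sample far from the other 3, and in 13 of them it was the batch 4 sample. Chance gives about 1 in 20 such groups, but many of these genes were named for their batch 4 difference, so the count cannot be read against that rate.

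In DMSO, batch 4 was far below the others for nhr-23 (25.98 TPM, nearest other 42.2 TPM) and nhr-274 (21.46 TPM, nearest 30.0 TPM), and far above them for nhr-17 (25.11 TPM, nearest 10.7 TPM), nhr-135 (16.14 TPM, nearest 7.38 TPM) and nhr-176 (8.974 TPM, nearest 7.61 TPM).

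In DEET, batch 4 was far below the others for nhr-71 (9.265 TPM, nearest 13.1 TPM) and nhr-23 (30.04 TPM, nearest 42.4 TPM). It was far above them for nhr-205 (5.724 TPM, nearest 2.53 TPM), nhr-76 (9.307 TPM, nearest 7.17 TPM), nhr-99 (5.59 TPM, nearest 1.80 TPM), nhr-237 (3.819 TPM, nearest 1.38 TPM), nhr-17 (26.99 TPM, nearest 10.7 TPM) and nhr-135 (17.55 TPM, nearest 7.86 TPM). The exception to batch 4 was nhr-25, where the DEET sample of batch 2 stood at 1.486 TPM and the nearest other at 0.941 TPM.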

How the results depend on the processing

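No nhr gene was called for DEET in any fit: edgeR with or without the replicate block, with other scalings, without a filter or with a batch left out, DESeq2 and limma. Over all genes, 13 were higher and 0 lower with the block, against 0 and 0 without it. They were 22 and 8 without a filter, 18 and 2 by DESeq2, 6 and 0 by limma on log2(TPM + 1), and 0 and 0 by limma without a filter; with a batch left out 12 to 13 were higher and 0 to 3 lower. The members' median for DEET stayed below 0, from -0.0053 without batch 1 to -0.054 without batch 3.

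The batch test called 108 members, against 67 by DESeq2 and 21 without batch 4. Over all genes these counts were 10053, 8195 and 2907. With any other batch left out the test called 97 to 111 members and 9434 to 9794 of all genes. By DESeq2 64 members were higher in batch 4 and 15 lower, against 96 and 16 by edgeR. Over all genes DESeq2 called 3995 higher and 4512 lower, against 5642 and 4613 by edgeR. With another batch left out, 88 to 93 members were higher and 13 to 18 lower. Over all genes these counts were 5296 to 5426 and 4390 to 4666. With the RefSeq pseudogenes included, 98 of 192 were higher. Scaling by library total, added after seeing the data, moved the median batch 4 difference of all genes from 0.078 to 0.20, and took the calls among all genes from 55% to 66.1% higher. Among members it gave 111 higher and 9 lower, which took their calls from 85.7% to 92.5% higher. All 13 named batch 4 genes kept their direction and call. Members detected in DMSO numbered 153, or 170 at 0.5 TPM, 174 at 10 counts, 162 by mean, and 153 to 157 without a DMSO library.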

Other observations

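Of the 14 pseudogenes that RefSeq alone calls nhr genes, 7 passed the filter and 2 had at least 1 TPM in 4 of 4 DMSO libraries, nhr-144 at 4.49 ± 1.38 TPM and nhr-151 at 3.13 ± 0.42 TPM (SD, n = 4). None was called for DEET by edgeR with the block. nhr-151 had a log2 fold change of -0.47 ± 0.13 (SE, unadjusted p = 0.0039, adjusted p = 0.832) and nhr-287 of 0.63 ± 0.21 (SE, unadjusted p = 0.011, adjusted p = 0.9999). Against batches 1 to 3, nhr-144 and nhr-266 were higher in batch 4, at log2 differences of 0.71 and 1.23 (edgeR adjusted p = 2.6e-04 and 0.0064), and 0 were lower.

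Of the tested members that lie in runs, 63 of 105 (60%) were higher in batch 4 and 4 (3.81%) lower. Of those outside runs, 33 of 80 (41.2%) were higher and 12 (15%) lower. The shares over all genes tested were 36.4% higher and 29.8% lower, or 52.5% and 10.5% at 1 to 10 TPM. The difference between members in runs and outside them was not tested. Runs differed among themselves. All 7 genes were higher in the run that begins with nhr-178 (chromosome V, 1603906 to 1629432), 7 of 9 in that of nhr-133 and 8 of 12 in that of nhr-123, against 4 of 9 in that of nhr-182, 3 of 7 in that of nhr-161 and 4 of 7 in that of nhr-206. None was higher in the pairs that begin with nhr-94, nhr-50, nhr-65 and nhr-95. Whether shared reads among close copies have a part in this was not tested.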
